A study of Homo sapiens with 3 samples.

Results

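The 10 genes described here encode enzymes that make, modify or break down ceramide and its products: CERK, CERS2, CERS5, CERS6, SPHK1, SPHK2, SGPL1, SGMS1, ASAH1 and UGCG. They were chosen by symbol from the platform annotation, as a set assembled because CERK was lower with both WDR5 siRNAs. The values of CERK on these arrays were therefore used to choose the set, and they are given as a description. Of the 10 genes, 9 were measured, on 11 of the 53617 probe sets of the array, among 14884 named genes in all. No named probe set carried the symbol SPHK2, so its expression was not analysed here.

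The arrays profiled BE(2)-C, a human neuroblastoma cell line with amplified MYCN, which both the siRNA and the control cultures carry. Cells had received WDR5 siRNA-1, WDR5 siRNA-2 or a control siRNA, in each case for 40 hours, and total RNA was read on HuGene-2_0-st arrays. WDR5 belongs to the enzyme complexes that place methyl groups on lysine 4 of histone H3, and the study set it beside N-Myc, the product of MYCN. Each of the 3 groups had 1 array, so no value below has a replicate error or a p-value, both ratios share the 1 control array, and a ratio sets 1 array against another, not 1 condition against another.

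Ceramide is the hub of sphingolipid metabolism. Ceramide synthases (CERS genes) join a sphingoid base to a fatty acid, and each synthase prefers its own range of acyl chain lengths. The ceramide is then phosphorylated by ceramide kinase (CERK), converted to sphingomyelin by sphingomyelin synthase (SGMS1) or glucosylated by UGCG, the entry step to most glycosphingolipids, including the gangliosides for which neuroblastoma is known. Ceramidases such as ASAH1 release sphingosine, which the sphingosine kinases SPHK1 and SPHK2 turn into sphingosine 1-phosphate, a ligand of the S1PR receptors that SGPL1 degrades irreversibly. In many cell types ceramide is associated with growth arrest and death, and the phosphorylated products with survival and growth.

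The target of the siRNAs was lower on both arrays. WDR5 had a log2 level of 7.90 in siRNA-1 cells and 7.90 in siRNA-2 cells, against 9.46 with the control siRNA, 2.95-fold lower in each case. The WDR5 values of both siRNA arrays were exactly equal as listed. Such ties, described below, do not measure how alike the cultures were. Of 11 neuroblastoma and sympathetic lineage markers, 9 were measured, with levels from 7.29 (TH) to 12.5 (STMN2), and their log2 ratios to control ran from -0.81 to 0.73. The widest of these differed in direction between the siRNAs, with ratios of -0.81 and 0.51 for DBH, a noradrenaline synthesis gene, and -0.47 and 0.73 for CHGA, a secretory granule gene. Of 14 markers of Schwann cells, leukocytes, endothelium and fibroblasts, 6 were measured, with levels from 4.29 to 8.14, and their log2 levels summed to 37.5 with siRNA-1, 37.4 with siRNA-2 and 36.5 with control. Their log2 ratios to control ran from 0 to 0.83. The highest was that of PECAM1, an endothelial gene with levels of 4.88, 5.12 and 4.29, under the filter level given below. Only PECAM1 and CD68, a leukocyte gene, differed between arrays, so the sums differ through these alone and do not measure an amount of cells. The part of such cells in the results was not tested. Array medians were 5.79 with siRNA-1, 5.79 with siRNA-2 and 5.81 with control. Genes whose mean log2 level was at least 6.78, the median over named genes, were kept, which left 7442 genes and all 9 measured enzymes.

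Among the 9 measured enzymes, CERK stood far from control and the others did not. CERK was the 1 enzyme at least 1.5-fold lower than control with both siRNAs, and 0 were at least 1.5-fold higher with both. Over all kept genes these calls were made for 0.847% and 0.618%. Since CERK was chosen for this pattern, its count supports nothing. Of the other 8 enzymes, 0 reached 1.5-fold with either siRNA. In siRNA-1 cells, 4.60% of kept genes were lower and 2.24% higher by that much, and in siRNA-2 cells 4.00% and 2.19%. With shares this small, 0 of 8 is near the background.

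**Figure D1:**
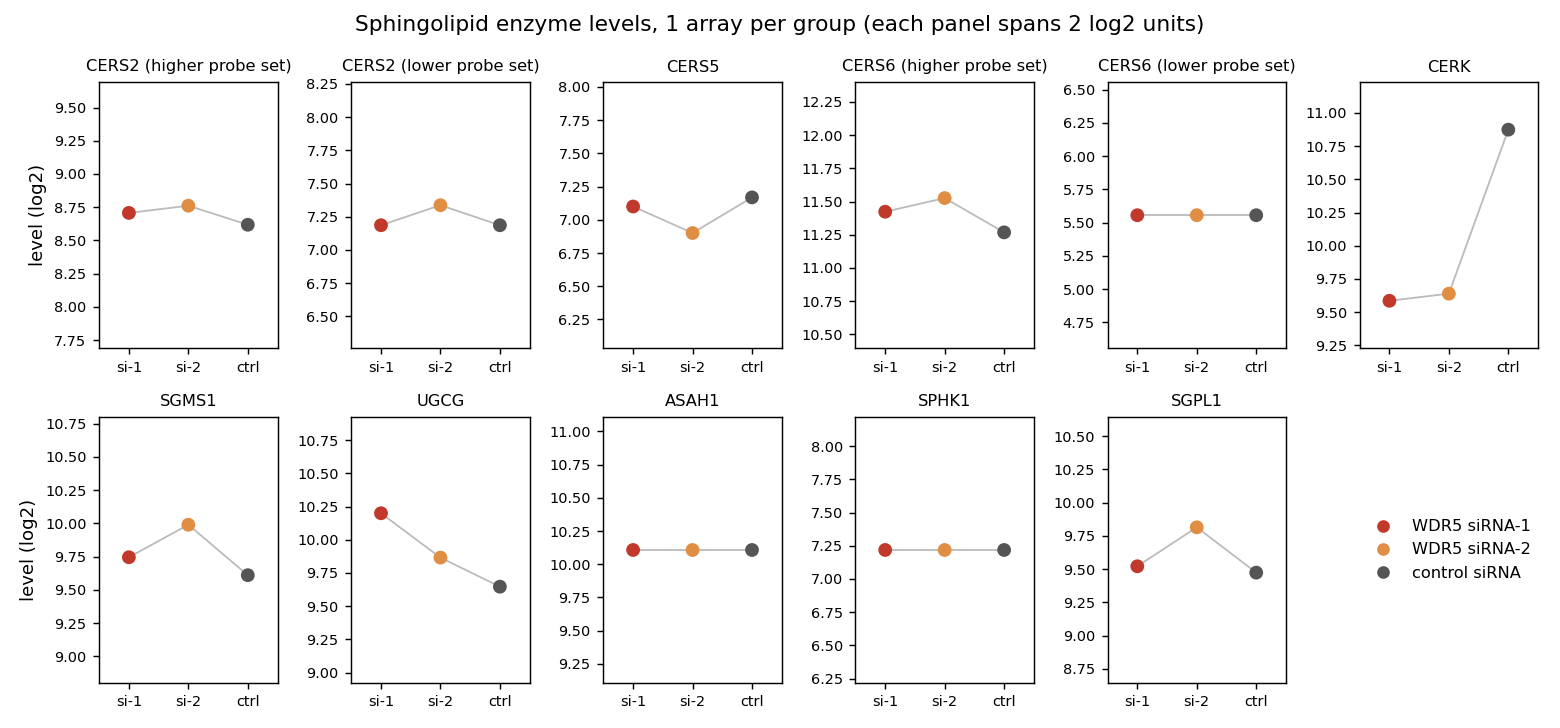
Log2 level (vertical axes, each spanning the same range of 2 log2 units) of the 11 probe sets of the 9 measured enzymes on the arrays of WDR5 siRNA-1, WDR5 siRNA-2 and control siRNA, 1 point per array with no replicate. CERK drops to 9.59 and 9.64 with the siRNAs, against 10.87 with control, whereas ASAH1, SPHK1 and the lower CERS6 probe set have the same value on all 3 arrays.

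CERK phosphorylates ceramide to ceramide 1-phosphate. Its probe set (16936137) had a log2 level of 9.59 in siRNA-1 cells and 9.64 in siRNA-2 cells, against 10.87 with the control siRNA. Both siRNA arrays were thus low, and they lay close to each other. In RNA from whole cultures, fewer cells that express a gene and less of its RNA per cell cannot be told apart. The log2 ratios were -1.29 and -1.23, or 2.44-fold and 2.35-fold lower, so that 41.0% and 42.5% of the control signal was left. The siRNA arrays differed by only 0.05 on the log2 scale, a difference that 65.1% of kept genes matched or exceeded. Among the 7442 kept genes, CERK had the 41st lowest ratio with siRNA-1 and the 23rd lowest with siRNA-2. Both siRNA levels stayed well above the filter level of 6.78. With quantile normalization the log2 ratios of CERK were -1.30 for siRNA-1 and -1.21 for siRNA-2. Centred on the median of the kept genes, they were -1.25 and -1.19. CERK has 1 probe set, so taking the mean of probe sets cannot change its ratios.

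Relative to CERK, every other measured enzyme was higher in both siRNA arrays than in the control array. UGCG over CERK exceeded its control value 3.58-fold in siRNA-1 cells and 2.74-fold in siRNA-2 cells. SGMS1 over CERK was 2.68-fold and 3.06-fold higher. The smallest such shift was that of CERS5 over CERK, 2.33-fold and 1.95-fold. These ratios restate the low CERK signal, which alone contributes 2.44-fold and 2.35-fold, the values for ASAH1 and SPHK1, whose own signals were listed as equal on all arrays.

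UGCG and SGMS1, which consume ceramide in other ways, were slightly higher with both siRNAs. UGCG (probe set 17088100), which makes glucosylceramide, had levels of 10.20 in siRNA-1 cells and 9.87 in siRNA-2 cells, against 9.65 with control. Its log2 ratios were 0.55 and 0.22, or 1.47-fold and 1.16-fold higher. The siRNA arrays lay 0.33 apart, more than the ratio of siRNA-2 itself. Of kept genes, 2.67% were as high or higher with siRNA-1 and 11.0% with siRNA-2. Centred on the median of the kept genes, the siRNA-1 ratio of UGCG was 0.59, just past 1.5-fold.

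SGMS1 (probe set 16714323), a Golgi enzyme that transfers phosphocholine to ceramide, stood at 9.75 with siRNA-1 and 9.99 with siRNA-2, against 9.61 with control. The order of the siRNAs was thus the opposite of that in UGCG. The ratios were 0.14 and 0.38, or 1.10-fold and 1.30-fold higher, with the siRNA arrays 0.24 apart. Of kept genes, 21.0% and 4.97% were as high or higher.

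The promoters of UGCG and SGMS1 are shown because these were the enzymes with the highest ratio to control with siRNA-1 and with siRNA-2. Each window holds 250 bases before and 50 after the gene's start on the gene's own strand, from RefSeq (GRCh38.p14): chr9:111896564-111896863, plus strand, for UGCG and chr10:50623907-50624206, minus strand, for SGMS1. Capitals mark GGGCGG on either strand (read as CCGCCC on the other), the core of GC boxes.
UGCG: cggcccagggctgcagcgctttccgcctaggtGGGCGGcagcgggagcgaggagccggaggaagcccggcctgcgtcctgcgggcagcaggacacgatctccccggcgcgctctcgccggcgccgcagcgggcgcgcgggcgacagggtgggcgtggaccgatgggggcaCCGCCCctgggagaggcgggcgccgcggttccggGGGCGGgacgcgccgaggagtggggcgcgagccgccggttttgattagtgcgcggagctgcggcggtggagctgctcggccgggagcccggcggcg
SGMS1: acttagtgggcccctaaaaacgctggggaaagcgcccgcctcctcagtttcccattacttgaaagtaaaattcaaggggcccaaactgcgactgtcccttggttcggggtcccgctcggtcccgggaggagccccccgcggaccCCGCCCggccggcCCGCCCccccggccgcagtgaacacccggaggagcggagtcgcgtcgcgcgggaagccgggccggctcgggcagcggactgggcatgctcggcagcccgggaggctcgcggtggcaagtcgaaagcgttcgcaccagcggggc
UGCG had 3 such matches and 48 CpG dinucleotides, and SGMS1 had 2 matches and 35 CpG. The table held windows for 7 of the 10 enzymes (CERS5, CERS6, SGMS1, SGPL1, SPHK1, SPHK2 and UGCG), 10 windows in all. It held none for CERK, CERS2 or ASAH1, so the counts below say nothing about CERK. GGGCGG was present in 8 of the 10 windows, against 45.0% of all 35116 promoter windows. The 10 windows, several of which belong to the same gene (SPHK1 and SPHK2), held 10 to 48 CpG dinucleotides, against a median of 14 over all windows, and GGGCGG itself contains a CpG. CACGTG, the E-box that MYC family proteins bind, was searched on both strands (it reads the same on each) and was present in 0 of the 10, against 7.26% of all windows. A missing match says only that these letters are not in these windows.

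The ceramide synthases did not move in 1 direction. CERS6, which favours the C16 chain length in ceramide, had levels of 11.42 in siRNA-1 cells and 11.53 in siRNA-2 cells, against 11.27 with control on its higher probe set (16887179). The ratios were 0.16 and 0.26, and both siRNA arrays lay above control by more than they lay apart (0.10). Its lower probe set (16904775) was listed at 5.56 on all 3 arrays, below the filter level. With both probe sets averaged, the siRNA-2 ratio of CERS6 was 0.13.

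CERS2, the synthase of very long chain ceramides, had levels of 8.71 and 8.76 with the siRNAs, against 8.62 with control, ratios of 0.09 and 0.14 (probe set 16692892). Its lower probe set (16670673) had 7.19 with siRNA-1 and 7.34 with siRNA-2, against 7.19 with control, so that on this probe set the siRNA-1 ratio was 0 and the siRNA-2 ratio 0.15. CERS5, like CERS6 a synthase of C16 ceramide, went the other way. Its levels were 7.10 and 6.90, against 7.17 with control, and its ratios were -0.07 and -0.27 (probe set 16764535). Its siRNA-2 level was close to the filter level of 6.78.

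On the path from ceramide to sphingosine 1-phosphate, ASAH1 (acid ceramidase, probe set 17075082) was listed at 10.11 on all 3 arrays and SPHK1 (probe set 16838059) at 7.22 on all 3. Exactly equal values on all arrays stood in 14.9% of kept genes and in 37.1% of all probe sets, so an exact 0 in these files does not measure how similar the cultures were. SGPL1 (probe set 16705778), the lyase that ends the pathway, had levels of 9.52 in siRNA-1 cells and 9.81 in siRNA-2 cells, against 9.47 with control. Its siRNA-2 ratio was 0.34, or 1.27-fold higher, and its siRNA-1 ratio 0.05, with the siRNA arrays 0.29 apart. Of kept genes, 6.15% were as high or higher with siRNA-2 and 31.5% with siRNA-1.

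Counted by any amount, 5 of the 8 enzymes other than CERK (CERS2, CERS6, SGMS1, UGCG and SGPL1) were higher than control with both siRNAs, 1 (CERS5) was lower with both and 2 were tied. Over all kept genes, 18.0% were higher with both and 22.3% lower with both. The median log2 ratio of the 8 was 0.07 for siRNA-1 and 0.18 for siRNA-2, against 0 and 0 for all kept genes. Across the 8, the median gap between the siRNA arrays was 0.15, against 0.13 over all kept genes, both for single genes. When arrays were centred on the kept genes, both tied enzymes were counted as higher too (7 of 8, at ratios of 0.04 and 0.05, against 50% of all kept genes with that scaling), and with quantile normalization SPHK1 was (6 of 8, against 47.3% of kept genes).

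**Figure D2:**
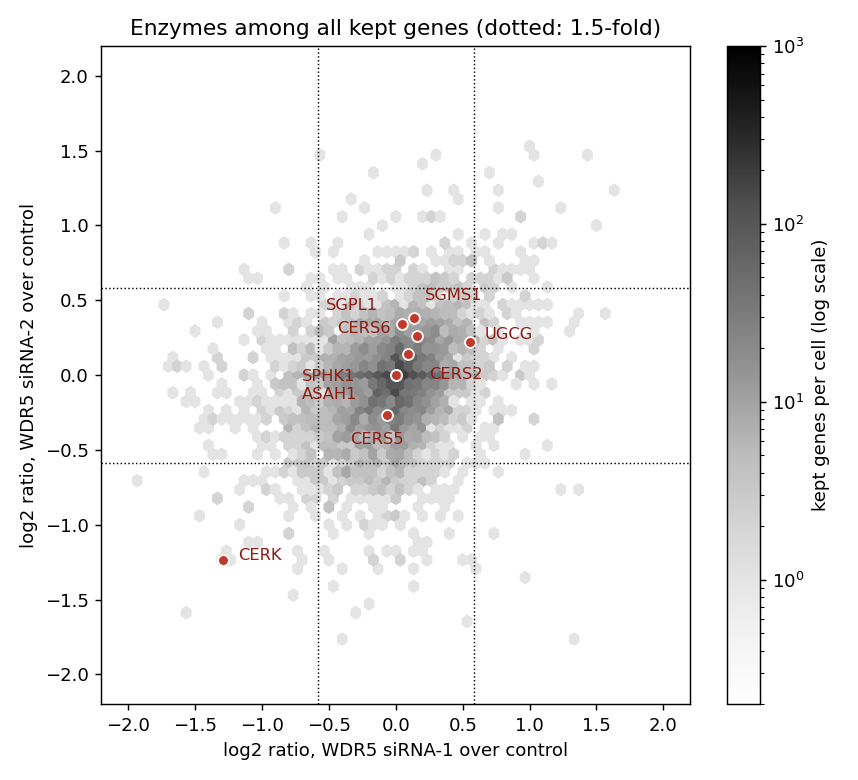
Log2 ratio to control with WDR5 siRNA-1 (horizontal) and with WDR5 siRNA-2 (vertical) for the 9 measured enzymes (red points, labelled) over the density of the 7442 kept genes (grey cells, log scale), with dotted lines at 1.5-fold; 4 genes beyond 2 log2 units in either ratio are not drawn. CERK lies at -1.29 and -1.23, outside the dotted lines on both axes, and the other 8 enzymes lie inside them; both ratios share the control array.

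A wider list of 85 sphingolipid genes was then read step by step. Of these, 42 were measured and 28 kept. In the 19 kept genes that are not among the 10 enzymes, 0 were at least 1.5-fold higher or lower with both siRNAs (0.618% and 0.847% of all kept genes). The limit was met with neither siRNA by 17. Most kept genes did likewise: 4.60% were lower and 2.24% higher with siRNA-1, and 4.00% and 2.19% with siRNA-2. These shares overlap between the siRNAs. The exact share of all kept genes that met the limit with neither siRNA was not counted. Medians of the 19 were 0.00 with siRNA-1 and 0 with siRNA-2. By any amount, 3 of the 19 were higher with both, 3 lower with both and 6 in opposite directions. Over all kept genes these shares were 18.0%, 22.3% and 25.2%.

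The early steps of synthesis were represented by ORMDL1, ORMDL2 and ORMDL3, regulators of serine palmitoyltransferase, and by the reductase KDSR. All 4 kept genes stayed under 1.5-fold. They were the only ones measured of the 9 listed for this step, and no subunit of serine palmitoyltransferase itself was among them. Nor was any listed desaturase or gene of sphingomyelin breakdown measured. ORMDL1 had levels of 10.39 in siRNA-1 cells and 10.39 in siRNA-2 cells, against 10.40 with control. Of the 5 listed ceramidases, all were measured and 2 kept, and the second of these, ACER3, differed between the siRNAs. ACER3, an alkaline ceramidase, had a level of 7.37 in siRNA-1 cells and 8.63 in siRNA-2 cells, against 8.40 with control. With siRNA-1 this was 2.04-fold lower and with siRNA-2 1.18-fold higher, and the siRNA arrays lay 1.26 apart on the log2 scale. Among genes below the filter, ASAH2, the neutral ceramidase, had ratios of -0.32 and -0.02.

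Genes of sphingosine 1-phosphate turnover and signalling stayed under 1.5-fold. SGPP1, a phosphatase that returns sphingosine 1-phosphate to sphingosine, had levels of 9.16 in siRNA-1 cells and 9.58 in siRNA-2 cells, against 9.61 with control, ratios of -0.44 and -0.03. The 3 kept genes of export and reception were higher with both siRNAs by small amounts (18.0% of all kept genes were, and 50% after centring). The receptor gene S1PR1 had levels of 7.27 and 7.27, against 7.06 with control, and S1PR2 of 7.98 and 8.19, against 7.91. SPNS2, the exporter, had ratios of 0.00 and 0.19.

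Genes of sphingolipid breakdown, mostly lysosomal ones (NEU3 is not), were mixed, with medians of -0.09 and 0 over 6 kept genes of 16 listed. GALC, the galactosylceramidase, had levels of 8.28 in siRNA-1 cells and 7.15 in siRNA-2 cells, against 7.80 with control. With siRNA-1 the gene was thus 1.40-fold higher and with siRNA-2 1.56-fold lower, the reverse of ACER3. NEU3, a sialidase that acts on gangliosides, was lower with both, with levels of 7.54 and 7.70, against 7.94 with control, and ratios of -0.41 and -0.24. For glycosphingolipid and ganglioside synthesis together, 3 of 17 listed genes were measured (UGCG, UGT8 and GAL3ST1), and UGCG was the 1 kept. The later steps of ganglioside synthesis were therefore not covered. CERK shares its catalytic domain family with the sphingosine and diacylglycerol kinases. Of 15 listed members of that family, 4 were measured. Besides CERK and SPHK1 these were AGK, a mitochondrial acylglycerol kinase, with ratios of 0.05 and 0, and CERKL, a CERK-like gene listed at 4.85 on all 3 arrays and below the filter.

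**Figure D3:**
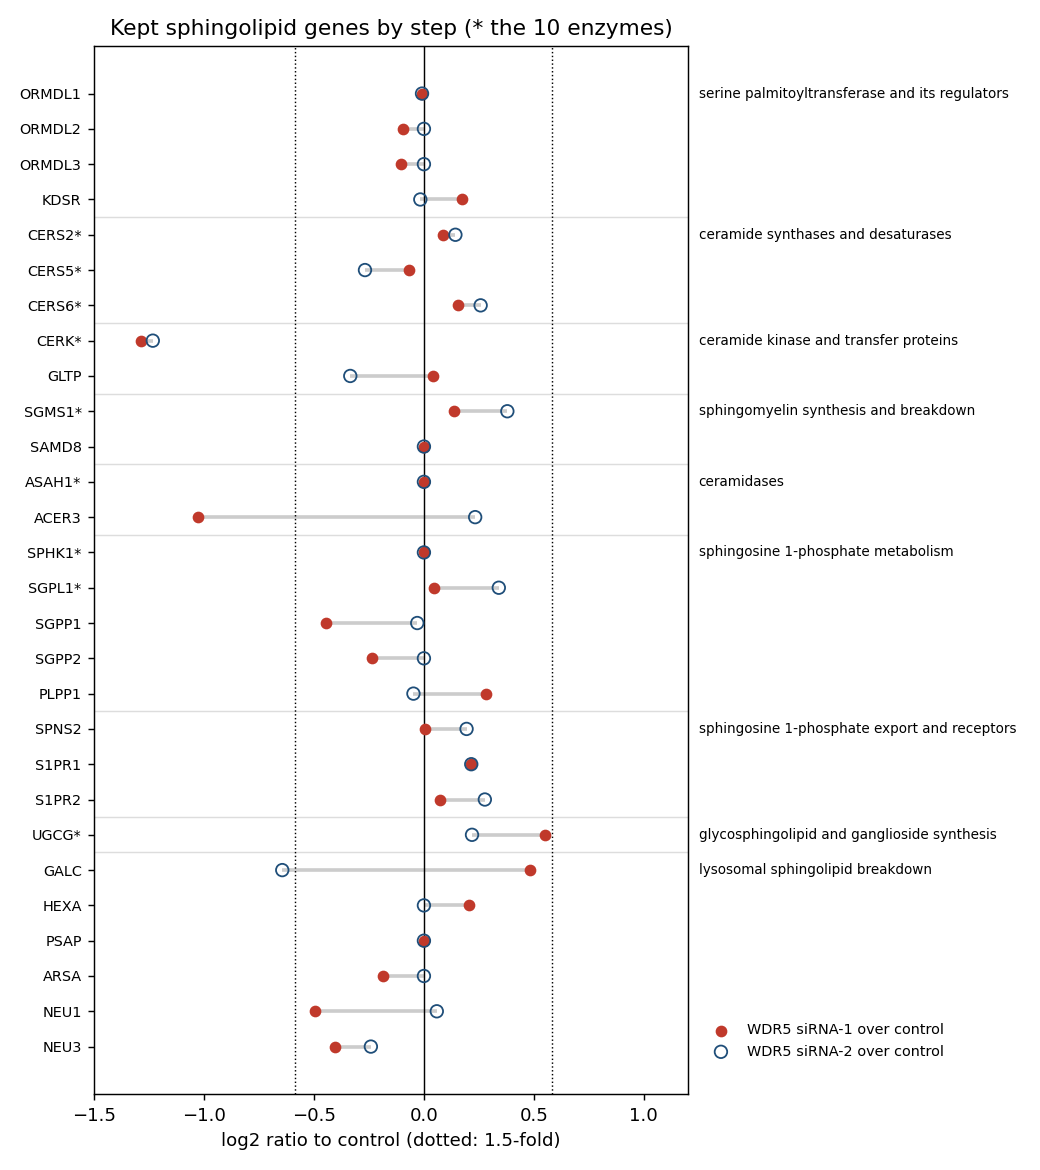
Log2 ratio to control (horizontal axis) with WDR5 siRNA-1 (filled points) and WDR5 siRNA-2 (open circles) for the 28 kept sphingolipid genes. Genes are ordered by step from the start of synthesis to breakdown, a step labelled lysosomal although NEU3 in it is not. Asterisks mark the enzymes of the set, and dotted lines are at 1.5-fold. CERK is past the line with both siRNAs, ACER3 with siRNA-1 alone (-1.03, against 0.23 with siRNA-2) and GALC with siRNA-2 alone (-0.64, against 0.48 with siRNA-1).

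The pattern of CERK over the 3 arrays was closest to those of 8 protein-coding genes, ranked by the Euclidean distance between pairs of log2 ratios. SEPTIN14, a septin gene, lay at a distance of 0.05 and EMP2, an epithelial membrane protein gene, at 0.08. The siRNA levels of SEPTIN14 (6.676 and 6.777) were under the filter level of 6.783. It was kept only through its control level of 7.963, so its place in this ranking is uncertain. RTKN2 (a rhotekin gene) followed at 0.22, DPYSL5 (a neuronal dihydropyrimidinase-like gene) at 0.29 and IGFBP5 (a binding protein of insulin-like growth factors) at 0.31. DDHD2 (0.38), which encodes a phospholipase, SCCPDH (0.41) and GPD2 (0.42), the mitochondrial glycerol 3-phosphate dehydrogenase gene, completed the 8. GPD2 had levels of 7.00 in siRNA-1 cells and 7.53 in siRNA-2 cells, against 8.35 with control. The distance compares 2 ratios that share 1 control array, so likeness here rests on 3 values per gene.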

How the data were processed

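The authors deposited 1 table of values for 53617 probe sets on 3 HuGene-2_0-st arrays, 1 per group. These deposited values span 1.34 to 14.9 and were taken to be log2, and every fold rests on that reading. The submitters' processing notes name MAS5 without a role, and background correction, normalization, summarisation and build are not given in the sources used here. Precision is limited by the number of arrays.

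From there, no further scaling was applied. The 16098 probe sets with a gene symbol in the platform annotation were matched by Entrez identifier to RefSeq (16098 found), and each gene was read from its probe set with the highest mean. Beyond this choice and the filter, no level was set against that of another probe set as a result. Genes with a mean of at least 6.78 were kept. Log2 ratios of each WDR5 siRNA array to the control array were counted at 1.5-fold. With 1 array per group no test was run. Named were the 10 enzymes, WDR5, listed pathway genes at 1.5-fold with either siRNA, up to 3 more per step by shared change, and the 8 genes most like CERK; KDSR, ORMDL2, ORMDL3, AGK, CERKL and the markers TH, STMN2, DBH, CHGA and PECAM1 were named after their values were seen. The members and lists were chosen with earlier results of these data known. Counting was tested on simulated data. Alternatives were quantile normalization, centring, mean of probe sets, other filters (none, 75th percentile) and other folds (1.25 and 2). Python 3.11.15, pandas 2.3.3 and numpy 2.4.6 were used.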

Additional observations from a re-analysis of the deposited data

How the results depend on the processing

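CERK stayed called as lower with both siRNAs under every alternative run, but it was chosen for this pattern, so this supports nothing. Only quantile normalization and centring recomputed its ratios, to -1.30 and -1.21 and to -1.25 and -1.19. The filters, the mean of probe sets and the other fold limits left its ratios at -1.29 and -1.23, so they add nothing to its call. Under every alternative, 2-fold included, 0 other enzymes were called with both siRNAs. Of 208 recomputed values, 193 stayed within 1.5 times (counts) or within 0.13 log2 units, the median gap between the siRNA arrays (ratios), 15 moved further and 0 changed sign among called values. Some of the 193 could not move, since the mean of probe sets leaves a gene with 1 probe set unchanged. Among all kept genes, 46 were higher and 63 lower with both siRNAs. At a lower fold limit, given with the processing, these were 184 and 281, at 2-fold 6 and 7, and the 75th percentile filter left 30 lower. By any amount, 1343 genes were higher with both, against 3521 with quantile normalization and 3721 with centring. Of the 2180 and 2378 genes newly higher, 1890 and 2012 had an exact 0 in at least 1 ratio as deposited. Of genes lower by any amount (1658), the 75th percentile filter left 836. For the pathway list, 8 genes higher by any amount became 13 with quantile normalization, 15 with centring and 5 with the 75th percentile filter. Its 5 lower genes became 3 with centring and 3 with that filter. The enzymes lower by any amount were 2, and 1 with that filter, under which CERS5 is not tested. No paired analysis was possible because each group has 1 array and no result comes from a test. The size of a fold close to the background signal is uncertain, since no detection call was made.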

Other observations

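Exact ties between arrays were frequent among sphingolipid genes at low levels. Of the 14 measured pathway genes below the filter level, 9 had the same value on all 3 arrays, among them CERS3, CERS4, SGMS2, ACER1 and ACER2, and the largest ratio of the 14 was 0.32 in absolute log2 units. Over all genes below the filter, 54.0% had the same value on all 3 arrays, against 14.9% of kept genes. Of the 28 kept pathway genes, 3 were tied in this way (ASAH1, SPHK1 and SAMD8, a homologue of the sphingomyelin synthases). Others were tied between a pair of arrays only. Among them were ORMDL1 and S1PR1 (both siRNAs), and ORMDL2 and ORMDL3 (siRNA-2 and control). A median given above as exactly 0 can rest on such ties. The step of the processing that gives rise to such ties is not given in the sources used here. CERS3, CERS4, SGMS2, ACER1, ACER2, SAMD8, UGT8, GAL3ST1 and the marker CD68 were named after their values were seen.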
